A study of Mus musculus with 41 samples.

Results

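Epithelial mammary tumors from mice that received a high fat diet (HFD) only in adulthood were compared with tumors from mice that received it only around puberty. The 13 tumors were chosen by their sample labels, as every tumor with a diet switch and the morphology label p53 variable, which the study calls epithelial in contrast to its spindle-like tumors. They are 13 of 41 tumors in the series and of 29 with that label. The comparison itself was chosen with earlier results of these data known. The LFD-HFD group held 6 tumors, 3 of early and 3 of late onset, from mice fed a low fat diet (LFD, 10% of kcal from fat) from 3 to 10 weeks of age and then the HFD (60% of kcal from fat). The HFD-LFD group held 7 tumors, 3 early and 4 late, from mice that had the diets in the reverse order. Early tumors appeared before 52 weeks. All hosts were wild-type female BALB/c mice, and every tumor, in both groups, grew from mammary duct fragments of Trp53-null BALB/c donors placed at 3 weeks of age in inguinal fat pads cleared of their own epithelium. The grafted epithelium therefore lacked Trp53, while vessels, fibroblasts, fat and immune cells came from hosts that carried it. Whole-tumor RNA was hybridised against Universal Mouse Reference RNA on 2-color Agilent arrays, 1 array per tumor, and the 8 LFD and 8 HFD epithelial tumors from mice on lifelong diets stand beside them only as levels. Tumors MSU_117L and MSU_117R share a label number, which may mark 1 mouse, and nothing else in the labels ties tumors to mice, so the p-values measure only the spread between these tumors, which may be less than that between independent animals.

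Puberty is the period in which ovarian hormones and growth factors drive the mammary ducts through the fat pad, from end buds that contain basal and luminal progenitors. In the adult gland that growth is largely complete, and the epithelium lies within a depot of adipocytes that release fatty acids, leptin and adiponectin. A diet rich in fat changes the fatty acids that reach the gland, and in obese animals macrophages gather in adipose tissue. Trp53 encodes the p53 tumor suppressor, which halts division or triggers cell death after DNA damage, and epithelium that lacks it gives rise to tumors of varied lineage. A direct comparison of the regimens asks whether tumors carry a different expression profile when the same diet came early or late in life.

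Values are log2 ratios of tumor over reference RNA for 1 probe per gene, and a difference is the mean of the LFD-HFD tumors minus the mean of the HFD-LFD tumors, so that positive values are higher after adult HFD. The array labels give Cy5 to the tumor, and the study's methods text gives Cy5 to the reference, which would turn every sign below. The files favor the labels: Ddx3y, a Y-linked RNA helicase gene that tumors in female hosts should lack, had a median log2 ratio of -6.77 and was below 0 on 13 of 13 arrays, and the Y-linked Eif2s3y had a median of -6.04, also below 0 on 13 of 13. The Y-linked Kdm5d and Uty, with medians from -0.52 to 0.09, were above background for tumor RNA on 4 arrays at most. Markers of epithelium (5 of 5), basal cells (4 of 4), fibroblasts (5 of 5), macrophages (4 of 4) and blood (3 of 3) were well above background on all 13 arrays, as were 4 of 5 endothelial, 3 of 4 T cell, 3 of 5 adipocyte, 3 of 5 skeletal muscle and 1 of 4 B cell markers, so these are mixed tissues. The Trp53 probe is no check of the genotype, since its place relative to the deletion is not known here, and it differed by -0.42 ± 0.38 (SE). Of the spots on an array, 66.5% to 88.9% passed the scanner software's background call for tumor RNA in LFD-HFD and 52.4% to 94.9% in HFD-LFD. Exact two-sided permutation tests over the 1716 assignments of the labels gave p from 0.699 to 0.896 for 4 such array measures, all 0.896 after adjustment. No slide held both regimens, since the LFD-HFD tumors lay on 2 slides and the HFD-LFD tumors on 2 others, so that regimen and slide cannot be told apart for any result here.

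No gene separated the regimens beyond the spread between tumors after adjustment. Of 21900 genes tested, 0 (0%) were higher or lower in LFD-HFD tumors at a Benjamini-Hochberg adjusted p under 0.10 in limma, and the smallest adjusted p was 0.342. A statistic after significance analysis of microarrays (SAM), the test of the study's methods, called 1 gene higher, 4933433H22Rik, and 0 lower. At an unadjusted p under 0.05, 851 genes (3.89%) were higher and 390 (1.78%) were lower in LFD-HFD. That excess of higher genes did not hold under every processing choice. The higher genes were 68.6% of all those at an unadjusted p under 0.05, against 54.2% with each array centred on its median, 49.2% in the authors' processed matrix, 41.5% without background correction and 38.8% with normexp background correction. Most differences were small: the median absolute difference was 0.21 on the log2 scale, 560 genes (2.56%) differed by more than 1, and the median gene had a 95% confidence interval of ± 0.57, or 1.49-fold in either direction. For 85.4% of genes that half-width was under 1. The median within-group SD was 0.41 in LFD-HFD and 0.50 in HFD-LFD.

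The tumors did not sort by regimen without the labels either. On principal component 1 (19.6% of variance) LFD-HFD and HFD-LFD tumors differed with an exact two-sided permutation p of 0.878, and on component 2 (17.9%) with an exact p of 0.0921, adjusted 0.184 over the pair. Tumors at the ends of component 1 were MSU_90R (LFD-HFD) and MSU_117L (HFD-LFD) on 1 side and MSU_108R (HFD-LFD) on the other. The genes with the largest weights on component 1 included Col17a1, a hemidesmosome collagen of basal cells, Wif1, a secreted Wnt inhibitor, and Bmp7, a bone morphogenetic protein gene. On component 2, MSU_108R (-111.3) and MSU_117R (-62.1) lay below the other 11, which were at -7.09 or above. The median correlation between tumors of different regimens was 0.798 (42 pairs), within LFD-HFD 0.833 (15 pairs) and within HFD-LFD 0.763 (21 pairs). The closest tumor by correlation had the same regimen for 7 of 13 tumors.

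**Figure D1:**
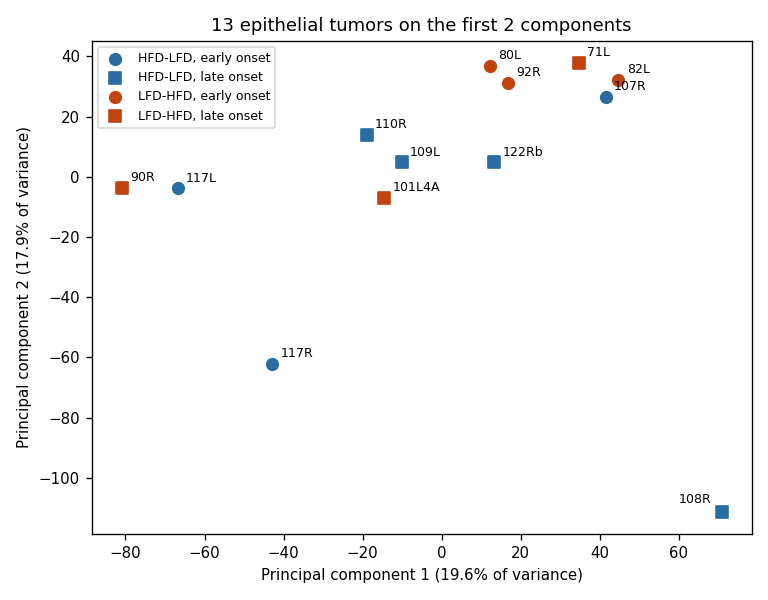
Scores of the 13 tumors on principal components 1 and 2 of the tested genes, with the share of variance on each axis; color marks the regimen, circles early and squares late onset, and each point carries its tumor name without the prefix MSU_. The regimens overlap on both axes, and MSU_108R lies apart at -111.3 on component 2.

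The 10 genes of smallest p in each direction are given because no gene passed, and they were picked from 21900 for that p. 4933433H22Rik, a transcript of no known function probed at chr17:84489156-84489215 (mm9), was the gene with the smallest p. Its log2 ratio was lowest at 1.11, median 1.48 and highest at 1.87 in LFD-HFD, and -0.09, 0.45 and 0.58 in HFD-LFD. Every LFD-HFD tumor lay above every HFD-LFD tumor, the difference was 1.17 ± 0.18 (SE, 6 against 7 tumors), and the adjusted p in limma was 0.342. Lifelong LFD tumors had a mean of 1.21 and lifelong HFD tumors 1.15, both between the groups. The other 19 genes had an adjusted p of 0.852 in limma.

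Tgds, a dTDP-glucose dehydratase family gene (chr14:118512294-118512353), ran from 0.63 through a median of 1.0 to 1.4 in LFD-HFD and from 0.00 through 0.31 to 0.53 in HFD-LFD. The groups did not overlap, and the difference was 0.75 ± 0.17. Vps35, a subunit of the retromer that returns receptors from endosomes, ran from 0.39 through 0.75 to 1.47 against -1.0, -0.46 and 0.71. Only the upper end of HFD-LFD reached into the LFD-HFD range, and the difference was 1.16 ± 0.28. Pinc, a noncoding RNA of the pregnant and involuting mammary gland, ran from 0.85 through 2.23 to 3.50 against -0.03, 0.70 and 1.26, a difference of 1.55 ± 0.37. The lifelong LFD tumors had a Pinc mean of 2.94 and the lifelong HFD tumors 1.64, so its lowest level was that of HFD-LFD. Apold1, an endothelial early response gene, ran from -3.05 through -2.26 to -1.59 against -4.54, -3.65 and -2.79. The groups overlapped slightly, the difference was 1.42 ± 0.29, and the other tested probe of the gene differed by 0.43. Exosc3, a cap subunit of the RNA exosome, differed by 0.90. Nepro (1.12), the zinc finger gene Zfp54 (1.30) and Odf2l (1.11), a centriole protein gene, were also among the higher genes.

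Rasa4 (chr5:136587498-136587557), a GTPase activator that switches off Ras, was the gene among the 10 lower ones whose groups did not overlap. Its log2 ratio ran from -0.36 through 0.11 to 0.41 in LFD-HFD and from 0.49 through 1.09 to 1.31 in HFD-LFD, a difference of -0.85 ± 0.20. Fgf9, a growth factor that signals between mesenchyme and epithelium, ran from -3.98 through -3.25 to -2.76 against -3.33, -1.61 and -0.56. The difference was -1.62 ± 0.38, with signal well above background in 3 of 6 LFD-HFD and 6 of 7 HFD-LFD tumors. Nudt11, which hydrolyses inositol polyphosphates, had the widest difference, -3.22 ± 0.79. It ran from -6.17 through -4.48 to -1.54 against -3.01, -1.63 and 0.96, and it too was above background in 3 of the 6 LFD-HFD tumors. Gprin3 (-2.14), Syt10 (-1.77), a vesicle calcium sensor gene, and Lhfpl3 (-1.62) had wide and overlapping ranges, and the other probe of Gprin3 differed by -1.03. The histone genes H4c4 (-1.33), H4f16 (-1.13) and H2ac4 (-1.13) and the transcript BB557941 (-0.95) made up the rest.

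**Figure D2:**
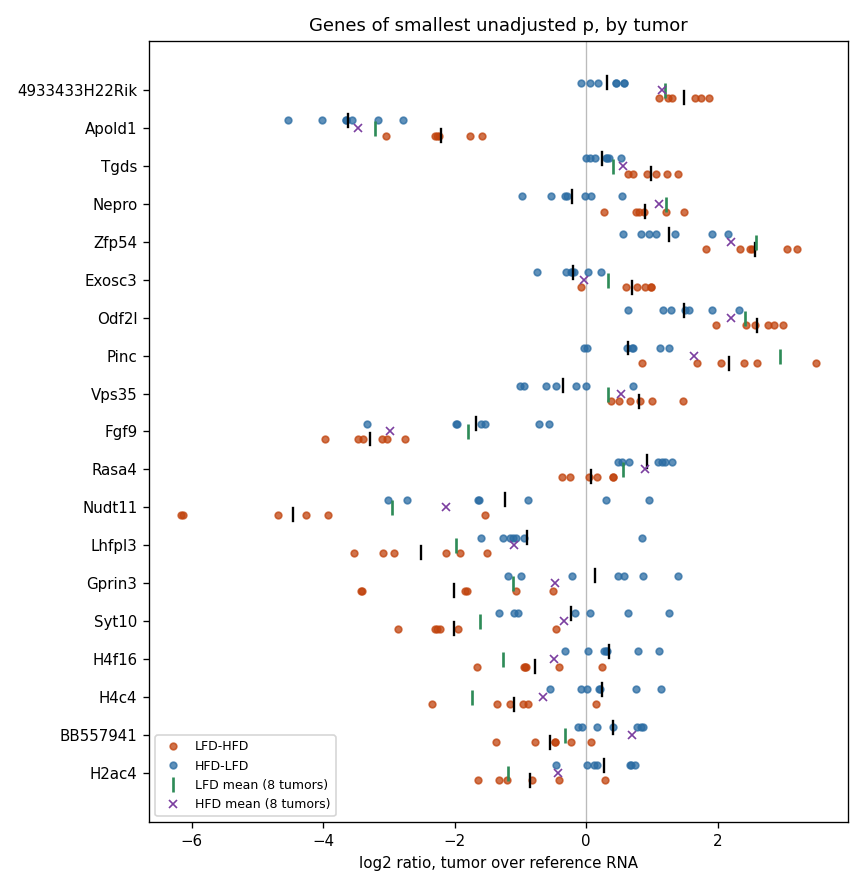
Log2 ratio of tumor over reference RNA in each tumor for 19 of the genes of smallest unadjusted p, 9 higher and 10 lower in LFD-HFD; points are tumors colored by regimen, black bars group means, and green ticks and purple crosses the means of 8 lifelong LFD and 8 lifelong HFD tumors. The groups are apart without overlap for 4933433H22Rik, Tgds and Rasa4, and overlap for the other 16.

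Over all genes with a value in every one of the 13 tumors, 22 (0.11% of 19950) had all LFD-HFD tumors above all HFD-LFD tumors and 5 (0.0251%) the reverse. Of these 27 genes 21 had a symbol. Among the higher genes, Haus2 was well above background in 6 LFD-HFD and 2 HFD-LFD tumors, and Gm5958 in 5 and 3. The lower Grin2d was well above background in 2 LFD-HFD and 4 HFD-LFD tumors. These genes passed the background filter mainly through the group where they were higher, so their lack of overlap supports nothing. Besides those above, the higher set held Sptlc2, a subunit of the enzyme that starts sphingolipid synthesis, with LFD-HFD values from -0.33 to 0.99 and HFD-LFD values from -1.02 to -0.33. It held also Hps3, of a complex that forms lysosome-related organelles, with 1.20 to 1.98 against 0.45 to 1.10, Golga5, a Golgi tethering protein gene (-0.49 to -0.12 against -1.25 to -0.59), and Med6, a Mediator subunit (0.18 to 0.84 against -0.16 to 0.10). The lower set held Ppp1r10, a nuclear phosphatase regulator, with -1.16 to -0.44 against -0.41 to 0.21. It held also Por, the electron donor of cytochrome P450 enzymes, with -2.13 to -1.60 against -1.60 to -1.22. The gaps between the groups were narrow for all of these, and each had an adjusted p of 0.852 in limma.

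The 39 gene lists described next cover the cells and pathways that diet, hormones and tumor growth could touch. Their 680 distinct tested genes split evenly, 344 higher and 336 lower in LFD-HFD. At an unadjusted p under 0.05, 26 (3.82%) were higher and 13 (1.91%) lower, beside 3.89% and 1.78% of all genes, and 17 lists had no such member. No member had an adjusted p under 0.10. The median over all genes tested was 0.04, with 12253 higher and 9647 lower.

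**Figure D3:**
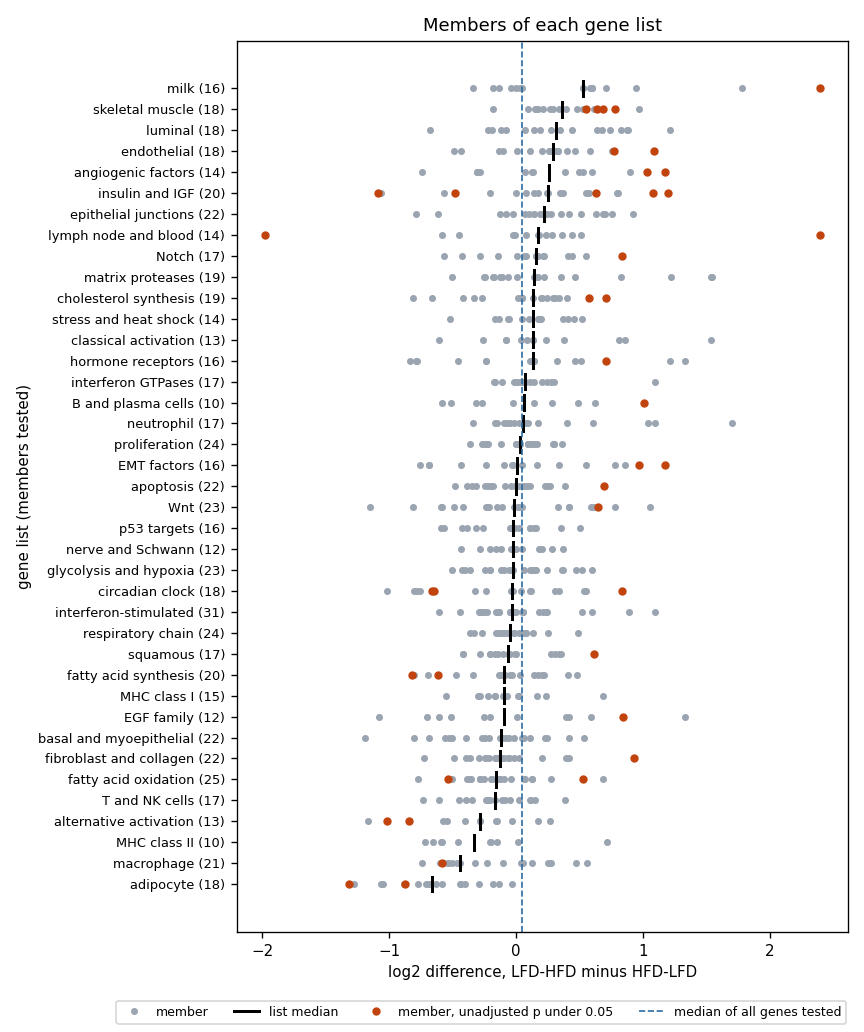
Log2 difference, LFD-HFD minus HFD-LFD, of every tested member of 39 gene lists, ordered by the list median; grey points are members, red points those at an unadjusted p under 0.05, black bars list medians and the dashed line the median of all genes, 0.04. The adipocyte list lies lowest, with a median of -0.66 and 0 of 18 members above 0, and the milk list highest, with a median of 0.53.

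Adipocyte genes were the list farthest from the rest. All 18 tested members were lower in LFD-HFD, with a median of -0.66, yet 2 of 18 were at an unadjusted p under 0.05. Of all genes tested 9647 of 21900 were lower, and 1.78% were lower at that threshold. Slc2a4, the insulin-responsive glucose transporter, ran from -4.77 through -4.11 to -1.95 in LFD-HFD and from -3.88 through -2.51 to -0.97 in HFD-LFD, a difference of -1.32 ± 0.49. The ranges overlapped, as MSU_90R, at -1.95, stood above 5 of the 7 HFD-LFD tumors. Lipe, hormone-sensitive lipase, differed by -0.87 ± 0.37. Adipoq, the adipokine adiponectin, ran from -4.08 through -3.42 to -2.09 against -4.68, -2.80 and -0.39, so the HFD-LFD range enclosed the LFD-HFD one, and the difference of -0.69 had a 95% interval from -2.13 to 0.75. Fabp4, the fatty acid carrier of fat cells, differed by -0.43 and Pparg, the regulator of fat cell formation, by -0.40.

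The list's mean level showed where this came from among the tumors. It ran from -3.67 through -2.88 to -1.97 in LFD-HFD and from -3.61 through -2.42 to -0.72 in HFD-LFD. The HFD-LFD tumors MSU_117R (-0.72), MSU_109L (-1.09) and MSU_122Rb (-1.27) lay above every LFD-HFD tumor, and the other 4 lay within the LFD-HFD range. Without MSU_117R the list median was -0.36, and without MSU_109L it was -0.43. It was -0.99 among early and -0.31 among late tumors. Lifelong LFD tumors ran from -3.58 to -2.27 and lifelong HFD tumors from -4.33 to -2.09. Arrays MSU_109L and MSU_122Rb also had the highest shares of spots above background, 92.6% and 94.9%, and the part of this in the result was not tested. In whole tumors, fewer cells of a type and less RNA per cell cannot be told apart.

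Skeletal muscle genes, which report body wall muscle taken with a tumor, leaned the other way. Of 18 members 17 were higher in LFD-HFD, with a median of 0.36, and 4 were at an unadjusted p under 0.05: Acta1 (0.78), Myl1 (0.68) and Tnnt3 (0.55), of the contractile apparatus, and Mylpf. Of all genes tested 55.95% were higher, and 3.89% were higher at that threshold. Tumor MSU_82L (LFD-HFD) had the highest list level, -3.31, and a Myh4 ratio of 2.81 where the other 12 tumors were at -1.19 or below. Mylpf, a myosin light chain gene, was well above background in 6 of 6 LFD-HFD and 1 of 7 HFD-LFD tumors, so that it entered through the group where it was higher and its difference supports nothing. Without MSU_82L the list median was 0.12, and with normexp background correction 0.13.

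**Figure D4:**
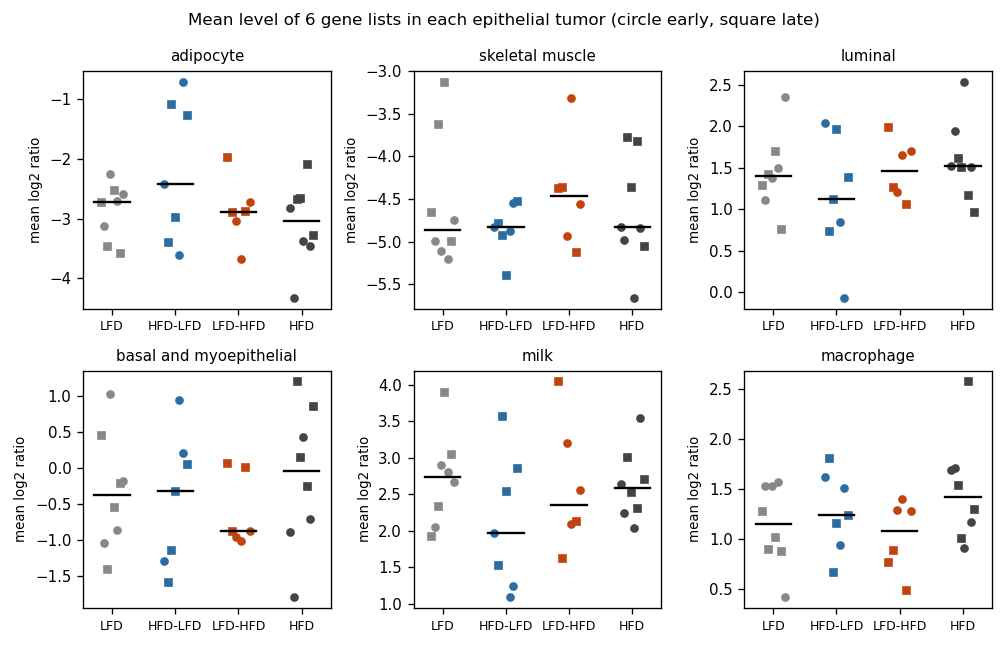
Mean log2 ratio of the members of 6 gene lists (adipocyte, skeletal muscle, luminal, basal and myoepithelial, milk, macrophage) in each epithelial tumor by regimen; circles are early and squares late tumors, and black bars group medians. The regimens overlap in each panel, and 3 HFD-LFD tumors stand above all LFD-HFD tumors for adipocyte genes, from -1.27 to -0.72.

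Genes of lipid synthesis and oxidation were read in whole tumors. At an unadjusted p under 0.05, fatty acid synthesis had 2 of 20 members lower and 0 higher. Fatty acid oxidation had 1 of 25 lower and 1 higher, and cholesterol synthesis 2 of 19 higher and 0 lower. Of all genes tested 3.89% were higher and 1.78% lower at that threshold. Fatty acid synthesis had a median of -0.09 (7 of 20 higher) and fatty acid oxidation -0.16 (7 of 25 higher). Fasn, fatty acid synthase, ran from -0.92 through 0.00 to 0.07 in LFD-HFD and from -0.13 through 0.57 to 0.92 in HFD-LFD. No LFD-HFD tumor passed 0.07, and 5 of 7 HFD-LFD tumors did, with a difference of -0.62 ± 0.22 and an adjusted p of 0.852 in limma. Dgat2, which completes triglyceride synthesis and was highest in MSU_117R (-1.47), the tumor with the highest adipocyte level, differed by -0.82 and Scd1, the desaturase, by -0.81. The last was not at an unadjusted p under 0.05. In oxidation Hadh differed by -0.54 and the peroxisomal Ehhadh by 0.53. Cpt1a, the gate of mitochondrial uptake, differed by -0.16 with a 95% interval from -0.76 to 0.45. In the cholesterol list (median 0.14, 14 of 19 higher) Cyp51, a lanosterol demethylase, differed by 0.71 ± 0.28, from -0.18 through 0.38 to 0.90 in LFD-HFD against -1.33, -0.39 and 0.59 in HFD-LFD. Their ranges overlapped. Respiratory chain subunits, with a median of -0.05, and genes of glycolysis and hypoxia, with a median of -0.02, had no member at an unadjusted p under 0.05.

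Insulin and IGF genes had the most members at an unadjusted p under 0.05 of any of the 39 lists, 3 higher and 2 lower of 20. Over all genes tested 3.89% were higher and 1.78% lower at that threshold, and over all lists 3.82% and 1.91%. The list had a median of 0.25. Igf1, the growth factor itself, ran from -3.0 through -2.12 to -1.87 in LFD-HFD and from -2.57 through -1.23 to 0.90 in HFD-LFD. The highest value was that of MSU_108R, the difference was -1.09 ± 0.43, and the gene's 5 probes ranged from -1.09 to -0.07. Among the binding proteins that hold IGFs outside cells, Igfbp7 differed by 1.20 and Igfbp3 by 1.08, and Igfbp6 by -0.48. Igfbp7 was at 1.89 or above in the 3 early LFD-HFD tumors and at 1.06 or below in the other 10. Sgk1, a kinase downstream of insulin, differed by 0.63. The receptors differed little, Igf1r by 0.14 and Insr by 0.08, with 95% intervals from -0.66 to 0.94 and from -0.91 to 1.07.

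Lineage genes of the epithelium overlapped between the regimens. The luminal list had a median of 0.31 (13 of 18 higher) with no member at an unadjusted p under 0.05. Krt8, a keratin of luminal cells, ran from 1.87 through 2.43 to 3.53 against 0.16, 1.84 and 2.64, a difference of 0.87 (95% interval from -0.01 to 1.75). Its lowest values were those of MSU_117R (0.16), MSU_117L (0.81) and MSU_109L (1.12). The luminal median ran from 0.07 without MSU_117R to 0.53 without MSU_107R, and was -0.01 without both MSU_117L and MSU_117R. The basal and myoepithelial list had a median of -0.12, with Krt5 at -0.50 and Krt14 at -0.02. Among milk genes (median 0.53, 12 of 16 higher) Glycam1 differed by 2.39 ± 0.89, from 1.09 through 3.88 to 5.18 in LFD-HFD and from -0.71 through 1.42 to 4.56 in HFD-LFD. Csn2, beta-casein, differed by 0.58 with an interval from -2.05 to 3.21. With the stricter filter of probes well above background on every array, the milk median was 0.03, without MSU_101L4A 0.06, without MSU_117L 0.17, without MSU_108R 0.20 and without MSU_80L 0.23. Hormone receptor genes had a median of 0.13. Vdr, the vitamin D receptor, differed by 0.71, and Esr1, the estrogen receptor, by 0.51 (95% interval from -0.45 to 1.47). Amphiregulin (Areg), the ligand through which estrogen drives pubertal duct growth, differed by 1.33 with an interval from -0.33 to 3.0. It was above 1.7 in every LFD-HFD tumor and ran from -2.83 (MSU_108R) to 3.03 (MSU_110R) in HFD-LFD.

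Junction genes had a median of 0.22 and transcription factors of the epithelial-mesenchymal transition 0.01. Twist1, one of the latter, ran from -0.33 through 0.50 to 1.30 in LFD-HFD and from -2.06 through -0.48 to -0.02 in HFD-LFD. All 7 HFD-LFD tumors were below 0 and 4 of 6 LFD-HFD tumors above it, with a difference of 1.18 ± 0.34. Prrx1 differed by 0.96. Others of the group did not follow, as Snai2 differed by -0.03 and Zeb1 by 0.17. In the stromal list (median -0.12) Postn, periostin, differed by 0.92, while Col1a1, type I collagen, differed by -0.10 and Dcn, decorin, by -0.29. Matrix proteases had a median of 0.14 with no member at an unadjusted p under 0.05.

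Vessel genes leaned higher in LFD-HFD. The endothelial list had a median of 0.29 (14 of 18 higher), and of 0.10 with normexp. Sox17, an arterial transcription factor, ran from -2.67 through -1.62 to -0.89 against -3.54, -2.92 and -2.39, a difference of 1.08 ± 0.29 with little overlap, and 0.55 on its other probe. Emcn, a sialomucin of capillaries, differed by 0.77. The defining markers did not follow: Pecam1 differed by -0.11 (95% interval from -0.49 to 0.28), Cdh5 by 0.00 and Kdr by -0.44. Among angiogenic factors (median 0.26) Vegfc, which acts on lymphatic vessels, differed by 1.17 and Pgf, placental growth factor, by 1.03. Pgf lay between 2.10 and 2.73 in all LFD-HFD tumors and between 0.09 and 3.30 in HFD-LFD. Vegfa differed by 0.50 (95% interval from -0.23 to 1.22).

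Macrophage genes had a median of -0.44 (7 of 21 higher), with -0.20 among early and -0.59 among late tumors and -0.13 with array weights. Cd68, a lysosomal marker, ran from 0.20 through 0.47 to 0.81 in LFD-HFD and from 0.72 through 0.85 to 2.26 in the 6 HFD-LFD tumors with a value. The highest was that of MSU_108R, and the difference was -0.58 ± 0.27. Adgre1, which encodes the F4/80 antigen, differed by -0.10 with a 95% interval from -0.50 to 0.29. In the list of alternative activation, a macrophage state tied to tissue repair (median -0.29, 2 of 13 higher), the lectin Clec10a differed by -1.02 and Chil4 by -0.84. Arg1, the arginase that marks this state, differed by 0.17 (95% interval from -0.92 to 1.27), and Mrc1 by -0.58. Classical activation genes had a median of 0.13, with Nos2 at 0.86 and Tnf at -0.08, neither at an unadjusted p under 0.05. MHC class II genes had a median of -0.33 (early -0.03, late -0.76), which was 0.03 with array weights. MHC class I (-0.10), interferon-stimulated genes (-0.03), interferon GTPases (0.07), T and NK cell genes (-0.16) and neutrophil genes (0.06) had no member at an unadjusted p under 0.05 in either direction. Prdm1, a plasma cell regulator that other cells also express, differed by 1.01 and was the only such member of the B cell list. Madcam1, an adhesion molecule of lymph node vessels, differed by -1.98 (-0.43 on its other probe) and was at 5.57 in MSU_108R. The list of lymph node and blood genes to which it belongs had a median of 0.18 (9 of 14 higher). Glycam1, given above with the milk genes, is also on this list and went the other way, at 2.39.

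Genes of cell division and death lay close to 0. Of 24 proliferation genes 0 were at an unadjusted p under 0.05 or an adjusted p under 0.10 in limma, and their median was 0.03. Mki67 differed by -0.23 (95% interval from -0.64 to 0.18), Pcna by 0.09 (from -0.32 to 0.50) and Top2a by 0.14. Apoptosis genes had a median of 0.00, with Apaf1, the apoptosome scaffold, at 0.69. Direct targets of p53, in tumors whose epithelium lacks it, had a median of -0.02, with Cdkn1a at -0.59 (95% interval from -1.33 to 0.14) and Mdm2 at 0.11.

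In signaling lists single genes stood out. Hes1, a Notch target, lay between 1.11 and 1.56 in all LFD-HFD tumors and ran from -0.64 through 0.46 to 1.51 in HFD-LFD, a difference of 0.83 ± 0.31. Tcf7, a Wnt pathway transcription factor, differed by 0.65 and Egf by 0.84. The clock genes, whose levels follow the hour of collection, had a median of -0.03. Clock, a core activator, differed by 0.83, Dbp, an output gene, by -0.65 and Cry2, a repressor, by -0.66. Krt1 (0.61) was the squamous gene at an unadjusted p under 0.05, and Krt10, its partner keratin, differed by 0.00. Stress genes (0.13) and nerve genes (-0.02) had none. Spats2 and Wdr20 (Wdr20a on the array), chosen from earlier results of these data, differed by -0.56 ± 0.30 and 0.81 ± 0.24. Wdr20 ran from 0.93 through 1.01 to 1.39 in LFD-HFD and from -0.63 through 0.39 to 0.98 in HFD-LFD, and its other probe differed by 0.11.

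For no gene did the contrast differ detectably between early and late tumors. The interaction of regimen and onset had 0 of 21900 genes (0%) at an adjusted p under 0.10 in limma, a smallest adjusted p of 0.983, and 962 genes (4.39%) at an unadjusted p under 0.05. Among early tumors alone 1682 genes (7.68%) were at an unadjusted p under 0.05 and among late tumors alone 524 (2.39%), none of them past adjustment. With the slide as a random block 28 genes passed for the interaction. Within HFD-LFD the early tumors shared 1 slide and the late tumors another. The early HFD-LFD tumors were MSU_107R, MSU_117L and MSU_117R. Of them MSU_117L and MSU_117R share a label number, which may mark 1 mouse, so the early values may rest on fewer mice than tumors. Several lists had medians of opposite sign by onset, and these differences were not tested as lists. Basal and myoepithelial genes had a median of -0.75 in early and 0.38 in late tumors, epithelial junctions 0.76 and -0.05, and fibroblast genes 0.35 and -0.48. In MSU_107R, MSU_117L and MSU_117R the mean level of the basal and myoepithelial list was -1.28, 0.94 and 0.22. That of the junction list was 0.97, 0.20 and -0.08. Krt5 was at -2.86, -2.47 and -2.64 in the early LFD-HFD tumors and at -2.76, -0.25 and 1.16 in the early HFD-LFD tumors. In late tumors it was at -2.06, -0.31 and -0.27 in LFD-HFD and at -3.14, -2.60, -0.78 and -0.50 in HFD-LFD. Both onsets held tumors at the low end, near -2 or below. Gadd45a, a growth arrest gene, was at 1.52, 2.18 and 2.58 in early LFD-HFD against -0.68, -0.32 and 0.19 in early HFD-LFD. In late tumors it was at -0.83, 0.67 and 1.21 against 0.97, 1.21 and 2.95 in the 3 with a value.

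The widest differences lay between tumors of the same regimen. The 10 genes with the largest SD over the 13 tumors had adjusted p from 0.866 to 0.991 in limma for the regimen contrast. Msln, the surface protein mesothelin, was at 6.63 in MSU_108R and at -1.07 or below in the other 12 tumors. Tumor MSU_108R also lacked the level of Sox10, a neural crest and mammary progenitor factor, seen elsewhere, with -1.18 against 2.91 or above. Its Prlr, the prolactin receptor, was at -1.91 against 1.51 or above, and its Mmp7, matrilysin, at 6.73 against 3.86 or below. Its array had the lowest share of spots above background, 52.4%. Wif1 was above 0.6 in MSU_101L4A, MSU_90R, MSU_117L and MSU_117R, which span both regimens, and ran from -6.99 to -1.18 in the other 9. Tfap2b, a transcription factor of neural crest and epithelium, was near 2 in MSU_90R (2.12) and MSU_117R (1.93) and at -0.29 or below elsewhere, with signal above background in 2 of 6 LFD-HFD and 5 of 7 HFD-LFD tumors. Col17a1 ran from -4.54 through -3.39 to 1.91 in LFD-HFD and from -5.25 through -0.27 to 2.22 in HFD-LFD. Krt90 reached 6.41 in MSU_117L and the milk protein gene Csn1s2a 7.93 in MSU_109L, while MSU_117L had the lowest Csn1s2a, -2.73. Rmst, a long noncoding RNA of neural progenitors, was at 6.07 in MSU_107R and 4.63 in MSU_110R and at 2.66 or below in the rest. Aadac, an arylacetamide deacetylase of liver and gut, was at 1.02 in MSU_117R and -2.23 in MSU_108R and at -4.13 or below in the other 11. Edil3, a secreted integrin ligand, ran from -4.71 to 1.70 in LFD-HFD and from -5.76 to -0.10 in HFD-LFD, and the transcript 2310057J18Rik was at 4.66 or above in MSU_101L4A, MSU_80L, MSU_117L and MSU_110R. These extremes fell on tumors of both regimens and both onsets. Tumors MSU_117L and MSU_117R, of the same label number, correlated at 0.787, and 46 of the 78 pairs correlated at least as closely.

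**Figure D5:**
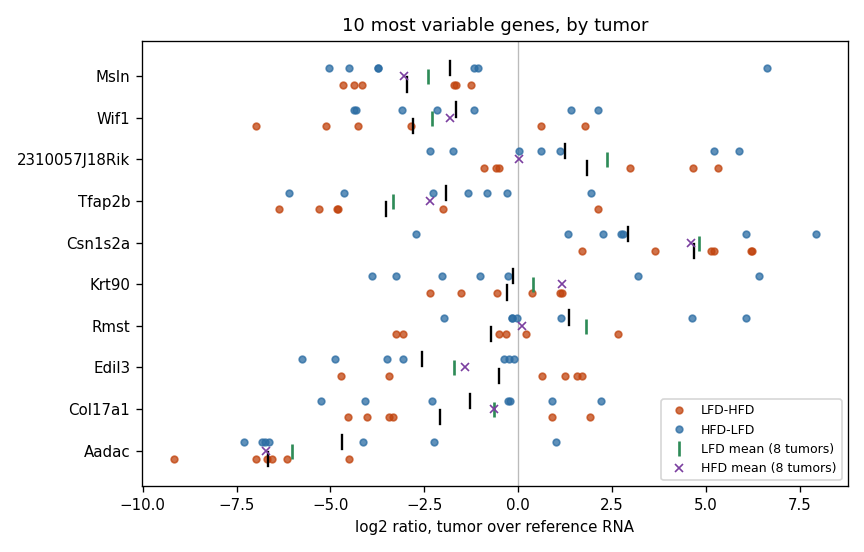
Log2 ratio of tumor over reference RNA in each tumor for the 10 genes with the largest SD over the 13 tumors; points are tumors colored by regimen, black bars group means, and green ticks and purple crosses the means of lifelong LFD and HFD tumors. The regimens overlap for each gene, and the Msln value of 6.63 (MSU_108R) stands alone.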

How the data were processed

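Scanner files of 13 2-color arrays were analysed, with those of 16 lifelong-diet tumors for levels. The scanner intensities are per the file headers those of Agilent Feature Extraction 11.0.1.1 (the submitters' processing notes give 8.5.1.1), whose processed signals the authors deposited background-subtracted and dye-normalized. The authors also deposited a matrix of log2 ratios, lowess-normalized per the study's methods, which matched its own array best for 13 of 13 tumors (r from 0.966 to 0.978, column medians from -0.02 to 0.03) and served as an alternative. Here the log2 ratio of red over green processed signal was taken per spot, control spots were left out, outlier spots (0.72% of values) were set missing and spots of a probe averaged. As in the study's methods, a probe needed a signal above 10 for tumor and reference on 80% or more of the arrays. It also had to pass the background call for tumor RNA on 6 or more of the 13. This kept 28485 of 39429 probes. Each gene kept the tested probe that was brightest on average, with at least 3 values per group. Coordinates and names are those of the array design (mm9), with symbols updated where accessions matched: 17492 of the 21900 genes have a symbol in the gene table.

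Groups were compared with limma 3.58.1 (R 4.3.3) with Benjamini-Hochberg adjustment over all genes and the study's diet threshold of 0.10. Missing values stayed missing, and the study's nearest-neighbour imputation (10 neighbours) was used for SAM (100 permutations). The scripts were tested on simulated data. The genes named were the 10 of smallest p in each direction with a symbol and signal in at least 50% of each group's arrays, the key and extreme members of each list, the 10 of largest SD, and Spats2, Wdr20a and Trp53. A few named genes are not reported here. Genes described by non-overlapping groups or by an unadjusted p under 0.05 were picked after their values were seen. The tumors compared and the gene lists were chosen with earlier results of these data known. Alternatives covered background correction, centring, filters, probe choice, samples, onset, slide as a random block, array weights, the authors' matrix, SAM, the threshold and leaving out each tumor. The number of arrays limits the precision of every value.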

Additional observations from a re-analysis of the deposited data

Results flagged for a closer look

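In 38 of 520 groups of values tested with Dixon's criterion, a tumor stood apart from the rest of its regimen, and chance alone flags about 1 in 20 groups. Tumor MSU_108R (HFD-LFD) did so in 8, at 6.63 for Msln, 2.26 for Cd68, -1.18 for Sox10, -1.91 for Prlr, 6.73 for Mmp7, -0.80 for Me1, 5.57 for Madcam1 and 3.11 for Mbp. Tumor MSU_90R (LFD-HFD) did so in 9, at 1.39 for Wdr20, 1.64 for Lcn2, -0.92 for Fasn, -2.12 for Fos, -4.04 for Hbb-bt and 4.11 for Nlrc5, and with list means of 0.11 for Notch, -0.13 for nerve and Schwann and -0.32 for stress and heat shock genes. Tumor MSU_101L4A (LFD-HFD) did so in 7, at -0.0804 for Exosc3, 2.22 for Itgam, 4.89 for Elf5, 1.20 for Arntl, -1.08 for Vegfd and 5.20 for Ltf, and with a mean of -0.37 for alternative activation.

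Tumor MSU_71L (LFD-HFD) was lowest at -1.10 for Per2 and highest at -0.11 for Pdk4, and 90.4% of its spots were above background in the reference channel. Tumor MSU_117L (HFD-LFD) was at 0.85 for Lhfpl3 and 3.31 for Krt16, with a T and NK cell mean of -0.84. Tumor MSU_109L (HFD-LFD) was at -0.19 for Bcl2 and 3.22 for Sqle, and MSU_117R (HFD-LFD) at 2.83 for Mcl1 and -1.47 for Dgat2. Tumor MSU_82L (LFD-HFD) was at -3.38 for Cdh5, with a fatty acid synthesis mean of -1.08. Tumor MSU_107R (HFD-LFD) was at 1.20 for Prf1, and the array of MSU_122Rb (HFD-LFD) had 8.04% outlier spots.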

How the results depend on the processing

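With no filter on dim probes, 1 gene was higher (a transcript without a symbol) and 1 lower in LFD-HFD (Mmp16, -1.61, adjusted p 0.0408 in limma). In SAM 1 was higher, 4933433H22Rik, and so it was (adjusted p 0.0710 in limma) once the slide entered as a random block. The within-slide correlation was estimated below 0, at -0.0824, which narrows the errors. No gene passed in either direction in any of the other alternatives run. Genes at an unadjusted p under 0.05 numbered 1241, and 2188 with normexp, 1899 without background correction, 2025 with no filter, 2016 with the slide block, 1939 with array weights and 524 in late tumors alone. Leaving out 1 tumor at a time gave 0 to 0 calls and 877 to 1612 genes at an unadjusted p under 0.05. The cause of these shifts was not tested. For the interaction, 28 genes passed with the slide block (correlation -0.242), 0 with normexp or array weights and 0 to 1 on leaving out a tumor: 1 without MSU_101L4A (Fam169b, adjusted p 0.0754 in limma) and 1 without MSU_71L (Prokr2, 0.00295). With normexp the exact permutation p for regimen was 0.123 on component 1 and 0.122 on component 2. The scores on these components correlated with those given above at an absolute r of 0.66 and 0.60, so they are only partly the same axes. None of the 20 genes of smallest p changed sign in the 29 or 30 alternatives that gave it a value. They were picked for that p, and the alternatives reuse the same tumors, so a stable sign was nearly fixed in advance and supports nothing. Of the 39 list medians 28 changed sign in some alternative and 11 in none, among them those of adipocyte, macrophage, endothelial and skeletal muscle genes. The same tumors are reused here too, so an unchanged sign of a list median is no separate support. The adipocyte median ran from -0.99 to -0.31 over 29 alternatives and the macrophage median from -0.59 to -0.13. No paired analysis was possible because the replicate numbers only name tumors in accession order and the labels tie no tumor of one regimen to one of the other.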

Other observations

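Genes of the histone clusters, most of which make the histones that package newly copied DNA, had mostly negative differences, although none passed adjustment (smallest adjusted p 0.852 in limma). The list holds every tested gene with a cluster name on the array, testis forms included. It was made after 3 of them had appeared among the genes of smallest p, so it carries no test. Of 44 tested, 38 were lower and 21 of these were at an unadjusted p under 0.05, beside 1.78% of all genes, with 0 higher. Their median was -0.72 (early -0.92, late -0.57). The mean level ran from -0.65 through -0.50 to -0.03 in LFD-HFD and from -0.45 through 0.24 to 0.71 in HFD-LFD. Of the HFD-LFD tumors MSU_109L (-0.45) and MSU_122Rb (-0.07) lay within the LFD-HFD range, and the other 5 lay above it. The arrays of those 2 tumors had the highest shares of spots above background, 92.6% and 94.9%. MSU_108R, with the highest histone level, had the lowest share, 52.4%. MSU_107R (65.85%) had a level of 0.17, and the LFD-HFD tumor MSU_82L (66.5%) one of -0.48. The part of array signal in the result was not tested. Lifelong LFD tumors had a median of -0.36 and lifelong HFD tumors -0.30, both below the HFD-LFD median. Over 30 alternatives the median ran from -0.92 to -0.43 and the members at an unadjusted p under 0.05 from 2 (late tumors alone) to 24. The proliferation list had a median of 0.03, with -0.22 among early and 0.30 among late tumors. Without MSU_108R, MSU_109L and MSU_122Rb it was -0.22 and the histone median -0.78. Near-identical gene copies share probes, so single members are uncertain. Transcripts of these genes mostly lack a poly(A) tail, and the share of them that the labelling captured is not known here.

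Genes higher in LFD-HFD were unevenly spread over chromosomes, a pattern also seen after the values and given without a test. On chromosome 12, 77 of 798 genes (9.65%) and on chromosome 8, 93 of 1111 (8.37%) were higher at an unadjusted p under 0.05, beside 2.15% to 5.18% on the other 18 (autosomes and X). The median difference was 0.11 on chromosome 12 and 0.19 on chromosome 8. Of the 21 genes with a symbol and no overlap between the groups 5 lie on chromosome 12 (Golga5, Med6, Snx13, Sptlc2 and Tmem251). Of all 21900 genes tested 798 lie there. The 5 come from the same values as the shares above and are no separate evidence. The median level of chromosome 8 genes, relative to all genes of the same tumor and to the mean of the 13, ran from -0.15 through 0.09 to 0.15 in LFD-HFD and from -0.29 through -0.12 to 0.17 in HFD-LFD, lowest in MSU_108R. For chromosome 12 it ran from -0.06 through 0.04 to 0.19 and from -0.07 through -0.03 to 0.00. Both medians stayed above that of all genes in each of 30 alternatives, by 0.09 to 0.20 and by 0.04 to 0.10. The chromosomes were picked for these values, and the alternatives reuse the same tumors. A stable sign was therefore nearly fixed in advance and supports nothing. Without MSU_108R, MSU_109L and MSU_122Rb the chromosome 8 share was 0.99 times that of all genes. On leaving out single tumors it ran from 4.77% (without MSU_80L) to 15.1% (without MSU_90R), with 14.8% without MSU_107R, 5.31% without MSU_108R and 5.49% without MSU_82L. The chromosome 12 share ran from 5.76% (without MSU_80L) to 11.0% (without MSU_90R), with 6.27% without MSU_82L. It was 2.48 times that of all genes with all tumors. On leaving out single tumors it ran from 1.48 times (without MSU_101L4A) to 2.875 times (without MSU_92R). In early tumors alone it was 1.27 times, the lowest of the 30 alternatives, and in late tumors alone 1.67 times. The chromosome 8 share was 1.57 times that of all genes in early and 1.20 times in late tumors alone. No copy number was measured.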
